A study of Mus musculus with 12 samples.

Results

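The genes described here encode the protein machinery of pre-mRNA splicing in mouse embryonic stem cells: SR proteins, components of the small nuclear ribonucleoproteins (snRNPs), heterogeneous nuclear ribonucleoproteins (hnRNPs) and a few regulators of alternative splicing. Members were taken by symbol: all genes whose annotated symbol begins with Srsf, Sf3a, Sf3b, Hnrnp, Snrp or Prpf, together with U2af1, U2af2, Tra2a, Tra2b, Esrp1, Rbfox2 and Ptbp1, and without the imprinted gene Snrpn. The array carried 67 such genes out of 19057, and 63 of them were bright enough to be tested, out of 11445 tested genes in all. The other 4 members, Hnrnph2, Sf3a2, Snrpb2 and Snrpe, were above background on at most 1 of the 12 arrays and have no further values here. The cells were wild-type E14, a male embryonic stem cell line of strain 129/Ola, grown without feeder cells in medium with serum and the cytokine LIF. Untreated cells (0 h) and cells given 50 nM panobinostat (LBH589), an inhibitor of histone deacetylases, for 2 h, 6 h or 18 h were each measured on 3 single-colour Illumina bead arrays. Nothing in the labels tells whether the 3 arrays of a group hold separate cultures, so the p-values cover the spread between these arrays, which may be technical. There was no vehicle group and no untreated group at the later times, so drug exposure and time in culture cannot be told apart.

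Splicing removes introns in a spliceosome that is built anew on each intron. The U1 snRNP reads the upstream splice site. The U2AF proteins and the U2 snRNP with its SF3A and SF3B subunits read the downstream splice site and the branch site. The tri-snRNP, with some of the PRPF proteins, then joins and is rearranged for catalysis. SR proteins bind exons and mostly promote their inclusion, while hnRNP proteins coat nascent RNA and often repress exons, so the balance of these families helps to set which isoforms a cell makes. Many SR and hnRNP genes are known to limit their own expression through exons whose inclusion marks the transcript for decay, and an array probe reads only the transcripts that hold its target.

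Each array had 16813 to 18111 probes above background, and array means ranged from 307.3 to 482.7 signal units. All 8 markers of embryonic stem cells on a marker list were above background on every array. At 6 h and at 18 h 7 of the 8 fell, and their summed normalized signal was 24792 to 28263 units at 18 h, against 43648 to 53019 units at 0 h. Of 8 fibroblast markers 3 were tested, of which 2 rose at 6 h and 2 at 18 h, and Thy1 was above background on all 3 arrays at 18 h and at 0 h alike. The summed signal of the list was 654 to 985 units at 18 h, against 241 to 363 units at 0 h, and Col3a1, Dcn, Fap and Lum were above background on no array. Of 5 neuronal markers tested 3 rose and 1 fell at 18 h, with a summed signal of 1466 to 1711 units at 18 h, against 1436 to 1725 units at 0 h, and Dcx, Nefl and Snap25 were above background on no array. Of 4 endoderm markers tested 1 rose at 18 h, and of 4 blood and endothelium markers 1 rose and 1 fell. The part of these shifts in the results below was not tested. One array stood apart for the splicing genes: replicate 2 at 0 h read lowest of its group for 45 of the 63 members and for 34.7% of all genes. Over the members it lay a median of 0.24 on the log2 scale below the other 2 arrays, while over all genes the same median was 0.04 above them. On that array 13 of the 63 members lay more than 0.5 below the mean of the other 2, a cut that was not counted over all genes. Counts against 0 h are therefore given with and without it, and so are calls named here that depend on it. Sizes that it moved are given both ways for some genes only.

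Levels are normalized log2 signals, so that a difference of 1 is a doubling, and a change is given as a log2 difference with its standard error (SE). A gene is said to have risen or fallen where limma's moderated test gave a p-value under 0.05 after Benjamini-Hochberg adjustment across the 11445 genes. At 2 h, 0 of the 63 members passed, where 3.45% of all tested genes did (2.39% higher and 1.07% lower). At that time 8 of the 63 had an unadjusted p under 0.05, beside 2057 of the 11445 tested genes. The smallest adjusted p of a member was 0.0936. In an alternative fit with replicate number as a block, 2 members were higher and 1 lower at 2 h. Calls over all genes were then 763 in place of 395. At 6 h, 14 members passed, 3 higher and 11 lower (22.2% of the members), where 31.4% of all tested genes did, 17.8% higher and 13.6% lower. At 18 h, 24 members passed, 6 higher and 18 lower (38.1%), where 36.7% of all genes did, 21% higher and 15.7% lower. The share of members called was thus close to that of all genes at 18 h, and its split by direction was the opposite one: 28.6% of the members fell and 9.52% rose. The median change of the 63 members was −0.06 at 6 h and −0.29 at 18 h, beside 0.02 and 0.04 over all genes. Of the 63, 26 had all 3 arrays at 18 h below all 3 at 0 h, which 19.5% of all genes had. Another 6 had them all above, which 24.9% of all genes had. In RNA from a whole culture, fewer cells that express a gene and less of its RNA per cell cannot be told apart.

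**Figure D1:**
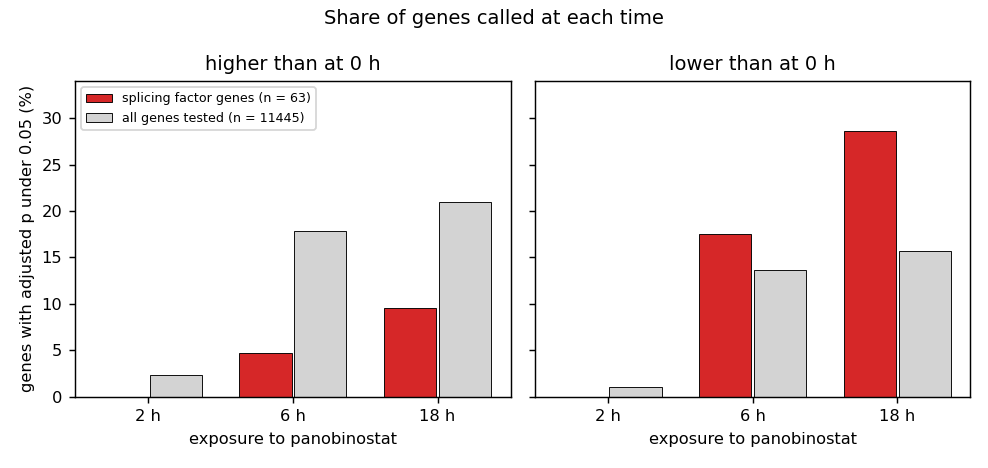
Percentage of genes with an adjusted p under 0.05 that were higher (left panel) or lower (right panel) than at 0 h after 2 h, 6 h and 18 h of 50 nM panobinostat, for the 63 splicing factor genes (red) and all 11445 tested genes (grey). At 18 h 28.6% of the splicing factor genes were lower, against 15.7% of all genes, and 9.52% were higher, against 21% of all genes.

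Without replicate 2 at 0 h, the lower calls came to 15 at 6 h and 25 at 18 h, of which 10 and 17 were shared with the fit on all arrays. The higher calls came to 1 and 5, all of them shared. The median change of the members was then −0.21 at 6 h and −0.38 at 18 h. The other arrays at 0 h moved the counts the other way: without replicate 1, 14 members passed at 18 h and 10 at 6 h, and without replicate 3, 16 and 9 did. At 6 h, 7 members passed without replicate 1 at 6 h, and 7 without replicate 2 at 6 h. Calls over all genes also varied, from 4200 at 18 h with all arrays to 3387, 4409 and 3352 without replicate 1, 2 or 3 at 0 h. At 6 h they went from 3591 to 2959, 3637 and 2804 in the same fits. Without replicate 1 or 2 at 6 h they were 2575 and 2766. The upward calls depended on the scaling. When each array was scaled to its 75th percentile in place of quantile normalization, the median change of all genes at 18 h was −0.11 in place of 0.04. In that fit 1 member was higher and 30 lower at 18 h, and 1 higher and 13 lower at 6 h. Over all genes it gave 4129 calls at 18 h and 3434 at 6 h. Those were not split by direction, so the share of all genes that fell in that fit is not known here.

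**Figure D2:**
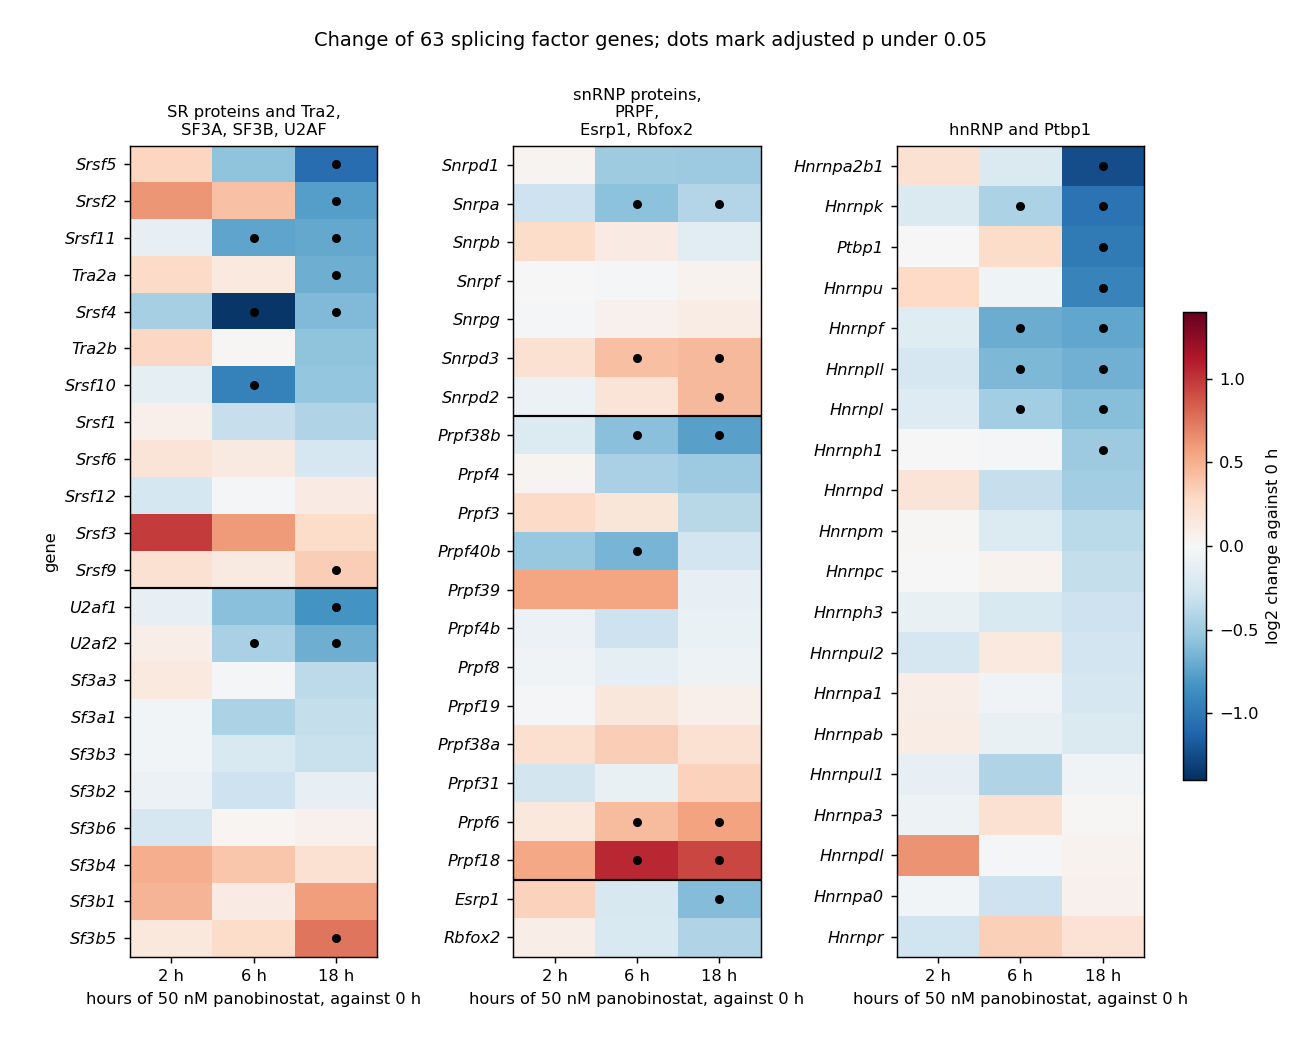
Log2 change of each of the 63 tested splicing factor genes at 2 h, 6 h and 18 h of 50 nM panobinostat against 0 h (colour scale, red higher and blue lower), grouped by family and ordered within a family by the change at 18 h. Dots mark changes with an adjusted p under 0.05; none stands at 2 h, and in the hnRNP panel all dots are on blue fields.

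Among the 12 SR and Tra2 genes, 5 fell and 1 rose at 18 h (41.7% and 8.33%, beside 15.7% and 21% of all genes). At 6 h 3 of them fell (25%, beside 13.6% of all genes). Srsf5, an SR protein that binds exonic enhancers, had signals of 9.51, 9.41 and 9.47 at 18 h, against 10.81, 10.06 and 10.72 at 0 h. All 3 arrays at 18 h lay below all 3 untreated arrays, and the change was −1.07 (SE 0.28, adjusted p = 0.00838), one of 3 members that changed at least 2-fold downwards at 18 h. At 6 h the 3 arrays of Srsf5 spread between 9.50 and 10.52 and its change of −0.56 did not pass (adjusted p = 0.14), while without replicate 2 at 0 h it was −0.80 and did (adjusted p = 0.0459). A second probe of Srsf5 read −0.59 at 18 h.

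Srsf2, the SR protein long used to mark nuclear speckles, had signals of 11.42, 11.09 and 11.92 at 18 h, against 12.55, 11.74 and 12.47 at 0 h. The groups overlapped, through the low untreated array, and the change of −0.78 (SE 0.26) had an adjusted p of 0.0339, which was missed without replicate 1 or 3 at 0 h or replicate 1 or 2 at 18 h (adjusted p up to 0.131), without the filter on dim probes and with only the groups compared fitted. At 6 h the arrays read 12.52, 12.43 and 13.02, so that the level at 18 h was lower than at 6 h by more than the spread, with a change of −1.18 (adjusted p = 0.0144) and no overlap. A second bright probe of Srsf2 read −0.59 at 18 h against 0 h, and a dim one, above background on 0 of the 3 arrays at 0 h, read 0.43. With the mean of all 3 probes the change was −0.31 against 0 h (adjusted p = 0.224) and −0.62 against 6 h (adjusted p = 0.0554), and the call against 6 h was also missed without replicate 3 at 6 h or replicate 2 at 18 h (adjusted p up to 0.0654).

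Srsf4, a large SR protein, fell and then partly recovered. Its signals were 10.10, 9.99 and 10.09 at 0 h, 9.40, 9.52 and 9.87 at 2 h, 8.61, 8.45 and 9.04 at 6 h, and 9.16, 9.60 and 9.57 at 18 h. Every later array lay below every untreated one, and the lowest values were those at 6 h. The change against 0 h was −1.36 at 6 h (SE 0.19, adjusted p = 0.000223) and −0.62 at 18 h (adjusted p = 0.0219), and the level at 18 h was 0.74 above that at 6 h (adjusted p = 0.0265). It was the only member that passed in opposite directions at 6 h against 0 h and at 18 h against 6 h. The call at 18 h against 0 h was missed without replicate 1 or 3 at 0 h or replicate 1 at 18 h (adjusted p up to 0.0951). The call at 18 h against 6 h was missed without replicate 1 or 2 at 6 h or replicate 2 or 3 at 18 h (adjusted p up to 0.101), and with scaling to the 75th percentile (0.63, adjusted p = 0.0705).

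Srsf10, an SR protein known to act as a repressor when dephosphorylated, had signals of 6.88, 7.06 and 7.37 at 6 h, against 8.18, 7.56 and 8.42 at 0 h, without overlap. Its change was −0.95 at 6 h (SE 0.24, adjusted p = 0.00955) and −0.54 at 18 h (adjusted p = 0.0954), the second short of the threshold. A second probe of Srsf10 read −1.17 at 2 h, −1.78 at 6 h and −0.51 at 18 h, while further dimmer ones read −0.36 and −0.22 at 6 h, so the probes of this gene differed in size. Srsf11, an SR family protein, had signals of 7.39, 7.79 and 7.55 at 18 h, against 8.29, 8.01 and 8.56 at 0 h. Its change was −0.73 at 6 h (adjusted p = 0.00845) and −0.71 at 18 h (adjusted p = 0.00826), with little movement in between. A second probe of Srsf11 read −0.52 at 6 h and a dimmer one 0.07, and the mean of its probes did not pass at 6 h (adjusted p = 0.0651).

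Tra2a and Tra2b are the paired mammalian relatives of the fly gene transformer-2, and both proteins bind purine-rich exonic enhancers. Tra2a had signals of 9.67, 9.82 and 10.22 at 18 h, against 10.72, 10.25 and 10.77 at 0 h. Its change was −0.68 (SE 0.20, adjusted p = 0.0183), and against 6 h it was −0.81 (adjusted p = 0.0230). Without replicate 1 or 3 at 0 h or replicate 1 or 2 at 18 h, the call against 0 h was missed (adjusted p up to 0.0762), and the call against 6 h was missed without any one array at 6 h or without replicate 1 or 2 at 18 h (adjusted p up to 0.0834). Tra2b read 8.47, 8.36 and 8.84 at 18 h, against 9.25, 8.57 and 9.55 at 0 h, and its change of −0.57 did not pass (adjusted p = 0.0951), though without replicate 2 at 0 h it was −0.85 and did (adjusted p = 0.0122), as did Srsf1 (−0.63, adjusted p = 0.0130) and Srsf10 (−0.79, adjusted p = 0.0164). Srsf9 was the 1 SR gene called higher at 18 h, by 0.35 (adjusted p = 0.0462), with 11.31, 11.32 and 11.33 at 18 h, against 10.99, 10.90 and 11.02 at 0 h. The call of Srsf9 was missed in 14 of 19 alternatives, the removal of any one of the 12 arrays among them. Srsf3, the smallest SR protein, had signals of 9.47, 9.38 and 9.81 at 2 h, against 9.20, 7.75 and 8.79 at 0 h, and its change of 0.98 at 2 h did not pass (adjusted p = 0.0964). Without the low replicate 2 at 0 h the change of Srsf3 was 0.56 (adjusted p = 0.207). The remaining SR genes Srsf1, Srsf6 and Srsf12 changed by −0.42, −0.23 and 0.11 at 18 h and passed at no time with all arrays. Without replicate 2 at 0 h, Srsf1 also passed at 6 h (−0.54, adjusted p = 0.0345) and Srsf6 was at −0.51 at 18 h (adjusted p = 0.0624).

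**Figure D3:**
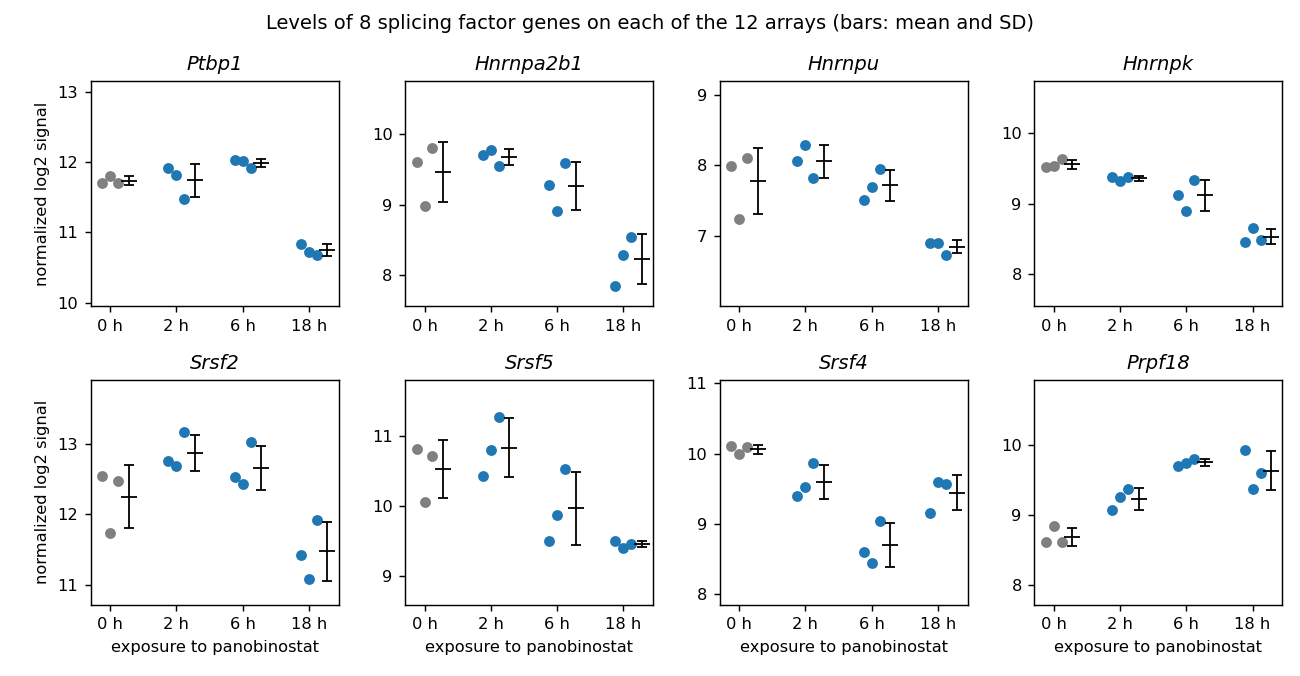
Normalized log2 signal of 8 splicing factor genes on each of the 12 arrays at 0 h (grey) and after 2 h, 6 h and 18 h of 50 nM panobinostat (blue), with the mean and SD of each group of 3 arrays (black bars). Every panel spans the same log2 range. Ptbp1, Hnrnpa2b1, Hnrnpu and Hnrnpk have their 3 lowest arrays at 18 h, Srsf4 its 3 lowest at 6 h, and Prpf18 has all arrays at 6 h and 18 h above the arrays at 0 h.

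The 10 genes for recognition of the branch site and the downstream splice site included 2 that fell and 1 that rose at 18 h. These are 20% and 10%, beside 15.7% and 21% of all genes. U2af2, the large U2AF subunit, which binds the polypyrimidine tract, had signals of 8.19, 8.42 and 8.33 at 18 h, against 9.08, 8.75 and 9.17 at 0 h. Its arrays did not overlap, and its change was −0.46 at 6 h (adjusted p = 0.0333) and −0.69 at 18 h (SE 0.15, adjusted p = 0.00310). U2af1, the small subunit, which reads the terminal AG of the intron, had 7.29, 7.85 and 7.92 at 18 h, against 8.49, 8.09 and 8.98 at 0 h. Its change was −0.83 (SE 0.26, adjusted p = 0.0230), missed without replicate 1 or 3 at 0 h or replicate 1 at 18 h (adjusted p up to 0.107). At 6 h U2af1 passed without replicate 2 at 0 h (−0.80, adjusted p = 0.0377) and not with it (−0.58, adjusted p = 0.109). The call of U2af2 at 6 h was missed without replicate 1 or 3 at 0 h or any of the arrays at 6 h (adjusted p up to 0.123), with scaling to the 75th percentile and with only the groups compared fitted, and its call at 18 h passed in all 19 alternatives.

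Sf3b5, a small subunit of SF3B, moved the other way. It had signals of 12.81, 12.49 and 12.91 at 18 h, against 11.98, 12.04 and 11.93 at 0 h, without overlap. Its change was 0.26 at 6 h (adjusted p = 0.193) and 0.75 at 18 h (SE 0.14, adjusted p = 0.00136), and a second probe read 0.68 at 18 h. With scaling to the 75th percentile its change at 18 h was 0.29 (adjusted p = 0.213), with the same sign and no longer past the threshold. The other SF3A and SF3B genes passed in no comparison with 0 h on all arrays and had changes from −0.37 for Sf3a3 to 0.59 for Sf3b1 at 18 h. Sf3a3, a subunit of SF3A, was at 11.04, 11.11 and 11.32 at 18 h, against 11.47, 11.39 and 11.72 at 0 h (adjusted p = 0.0617), and passed without replicate 2 at 0 h (−0.44, adjusted p = 0.0433), as did Sf3a1 at 6 h (−0.54, adjusted p = 0.0336). Sf3b1, the subunit that holds the branch site, was read by a probe that was not above background on every array, and its arrays at 18 h spread over 4.40, 5.48 and 5.24.

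Of the 7 snRNP proteins named Snrp, 1 fell and 2 rose at 18 h (14.3% and 28.6%, beside 15.7% and 21% of all genes). Snrpa encodes a U1 snRNP protein that binds a loop of the U1 RNA. Its signals were 10.40, 10.38 and 10.49 at 6 h, against 10.83, 11.18 and 11.00 at 0 h, and its change was −0.58 (SE 0.15, adjusted p = 0.0101), which passed in all 19 alternatives. At 18 h its change of −0.40 was close to the threshold (adjusted p = 0.0473) and was missed in 11 of 19 alternatives, among them without replicate 2 at 0 h (−0.31, adjusted p = 0.136). Snrpd2 and Snrpd3 encode proteins of the Sm ring, which encloses the RNA of the major spliceosomal snRNPs except U6. Snrpd2 had signals of 13.25, 13.06 and 13.28 at 18 h, against 12.66, 12.81 and 12.77 at 0 h (change 0.45, SE 0.14, adjusted p = 0.0188). Snrpd3 changed by 0.42 at 6 h (adjusted p = 0.0407) and by 0.45 at 18 h (adjusted p = 0.0249), the call at 6 h missed in 9 of 19 alternatives, among them without replicate 2 at 0 h (adjusted p = 0.0726). Neither call stood with scaling to the 75th percentile, where the change at 18 h was −0.06 for Snrpd2, with the sign turned, and 0.09 for Snrpd3. Both were missed at 18 h without replicate 1 at 0 h or replicate 3 at 18 h (adjusted p up to 0.0668 and 0.0832), and with only the groups compared fitted. Snrpd1, of the same ring, had a change of −0.51 at 18 h that did not pass (adjusted p = 0.0521), and Snrpb, Snrpf and Snrpg had changes between −0.15 and 0.11. Dimmer second probes read −0.67 for Snrpd1, −0.28 for Snrpb and 0.50 for Snrpg at 18 h. On the brightest probe of each gene, the changes within the Sm ring at 18 h thus ran from −0.51 to 0.45, with 2 members called, both higher.

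The 12 PRPF genes, named after yeast pre-mRNA processing factors, gave the largest rise among the members. Prpf18, known in yeast for the second catalytic step, had signals of 8.62, 8.84 and 8.61 at 0 h, 9.07, 9.25 and 9.37 at 2 h, 9.70, 9.74 and 9.80 at 6 h, and 9.92, 9.36 and 9.60 at 18 h. All 9 treated arrays lay above all 3 untreated ones. The change was 0.54 at 2 h (adjusted p = 0.0936), 1.06 at 6 h (SE 0.16, adjusted p = 0.000412) and 0.94 at 18 h (adjusted p = 0.000723), and the calls at 6 h and 18 h passed in all 19 alternatives, scaling to the 75th percentile included. Prpf6, which bridges parts of the tri-snRNP, had signals of 11.92, 11.54 and 11.50 at 18 h, against 11.14, 11.09 and 11.04 at 0 h. Its change was 0.44 at 6 h (adjusted p = 0.0409) and 0.56 at 18 h (adjusted p = 0.0107). With scaling to the 75th percentile the change at 18 h was 0.21 (adjusted p = 0.376), and the call was just missed with only the groups compared fitted (adjusted p = 0.0503). The call at 6 h was missed in 10 of 19 alternatives, among them without replicate 2 at 0 h (adjusted p = 0.0674).

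Prpf38b and Prpf40b fell. Prpf38b, a relative of the tri-snRNP protein Prpf38a, had signals of 6.05, 5.87 and 6.04 at 18 h, against 6.60, 6.55 and 7.11 at 0 h, a change of −0.76 (SE 0.20, adjusted p = 0.0103) that was missed without replicate 3 at 0 h (adjusted p = 0.0511). Its change at 6 h was −0.58 (adjusted p = 0.0437), a call missed in 12 of 19 alternatives. Prpf40b, whose yeast relative belongs to the U1 snRNP, had signals of 5.89, 5.85 and 6.14 at 6 h, against 6.63, 6.39 and 6.80 at 0 h. Its change was −0.65 at 6 h (adjusted p = 0.00881) and −0.27 at 18 h (adjusted p = 0.214), and its 2 dimmer probes read −0.33 and 0.08 at 6 h. With the mean of its probes the change at 6 h was −0.30 (adjusted p = 0.181). Prpf3, of the U4/U6 particle, passed in no comparison with 0 h on all arrays but did at 18 h without replicate 2 at 0 h (−0.50, adjusted p = 0.0332), while its level at 18 h was 0.56 below that at 6 h (adjusted p = 0.0437), a call missed in 11 of 19 alternatives. Prpf8, the scaffold of the catalytic core, had 10.19, 10.23 and 9.97 at 18 h, against 10.33, 10.09 and 10.18 at 0 h, and its change of −0.07 was within the spread. Prpf19, a ubiquitin ligase of the activated spliceosome, changed by 0.07 at 18 h.

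The 20 hnRNP genes, with Ptbp1 counted among them, held 8 of the 18 falls at 18 h and 0 rises (40% and 0%, beside 15.7% and 21% of all genes). At 6 h 4 of them fell (20%, beside 13.6% of all genes). Hnrnpa2b1, an hnRNP of the A/B family with roles in splicing and RNA transport, had signals of 7.84, 8.29 and 8.54 at 18 h, against 9.60, 8.99 and 9.81 at 0 h. The groups did not overlap, and the change of −1.24 (SE 0.24, adjusted p = 0.00151), or 2.37-fold lower, was the largest fall among the members at 18 h. At 6 h Hnrnpa2b1 read 9.28, 8.91 and 9.60, a change of −0.20 (adjusted p = 0.572), or −0.44 without replicate 2 at 0 h (adjusted p = 0.171), and the level at 18 h was 1.04 below that at 6 h (adjusted p = 0.0177). The call against 6 h was missed without replicate 1 or 3 at 6 h or replicate 1 at 18 h (adjusted p up to 0.0765), and with the mean of all probes of Hnrnpa2b1, where it was −0.60 (adjusted p = 0.179). A second bright probe of Hnrnpa2b1 read −0.53 at 18 h and a dim one read −1.47. The relative Hnrnpa1 changed by −0.23 at 18 h on its brightest probe (adjusted p = 0.229), with 11.70, 12.16 and 11.97 at 18 h, against 12.14, 12.12 and 12.27 at 0 h, and by −0.89 on its second probe. Such differences between probes of a gene cannot be told apart here from differences between its transcript forms.

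Hnrnpk, which binds C-rich RNA and DNA, had signals of 8.45, 8.65 and 8.48 at 18 h, against 9.52, 9.53 and 9.63 at 0 h. All 3 arrays at 18 h were lower by about the same amount, and the change of −1.03 (SE 0.15, adjusted p = 0.000177) had the smallest adjusted p of any member at 18 h. At 6 h the change of Hnrnpk was −0.45 (adjusted p = 0.0344), missed in 8 of 19 alternatives, among them without replicate 2 at 0 h (adjusted p = 0.0506), and −0.02 with the mean of its probes. A second probe read −0.03 at 6 h and −0.98 at 18 h, and a dim one, above background on 0 of the 3 arrays at 0 h, read 0.41 at both times. Hnrnpu, a protein that binds RNA and chromatin and is also called scaffold attachment factor A, had 6.90, 6.90 and 6.73 at 18 h, against 7.99, 7.25 and 8.10 at 0 h. Its change was −0.06 at 6 h (adjusted p = 0.861), or −0.33 without replicate 2 at 0 h, and −0.94 at 18 h (SE 0.22, adjusted p = 0.00465). The arrays at 18 h lay below every other array of the series for this gene.

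Hnrnpf, Hnrnpl and Hnrnpll fell by 6 h and stayed low. Hnrnpf, which binds runs of G, changed by −0.69 at 6 h (adjusted p = 0.0190) and by −0.73 at 18 h (adjusted p = 0.0127), both missed when single arrays were left out (replicate 1 at 0 h for both, replicate 1 or 2 at 6 h, and replicate 1 at 18 h, adjusted p up to 0.0879 and 0.0640). Hnrnpl, which binds CA-rich RNA, had signals of 11.89, 11.97 and 11.84 at 18 h, against 12.49, 12.36 and 12.62 at 0 h. Its change was −0.49 at 6 h (adjusted p = 0.0170) and −0.59 at 18 h (SE 0.14, adjusted p = 0.00470). The call of Hnrnpl at 6 h was missed without replicate 3 at 0 h or replicate 1 or 2 at 6 h (adjusted p up to 0.0684). Its paralog Hnrnpll, known in T cells for exon skipping in Ptprc transcripts, had 9.22, 9.47 and 9.52 at 18 h, against 10.13, 9.97 and 10.14 at 0 h, with changes of −0.63 at 6 h (adjusted p = 0.00922) and −0.68 at 18 h (adjusted p = 0.00503). On their brightest probes these 2 paralogs had no array at 6 h or 18 h within the range of their untreated arrays. A second probe of Hnrnpll, of similar brightness, read −0.44 at 6 h and −0.32 at 18 h. Hnrnph1, a relative of Hnrnpf, changed by −0.03 at 6 h, or −0.16 without replicate 2 at 0 h, and fell by 0.51 at 18 h (adjusted p = 0.0224). Its 5 probes read from −0.42 to −0.56 at 18 h. The call was missed without replicate 1 or 3 at 0 h or replicate 2 at 18 h (adjusted p up to 0.0864), and with only the groups compared fitted.

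The hnRNP genes that did not pass at any time against 0 h on all arrays include Hnrnpc, Hnrnpm, Hnrnpd and Hnrnpab. Hnrnpc, the U-tract binding core hnRNP, had signals of 13.57, 13.54 and 13.58 at 18 h, against 13.96, 13.75 and 13.97 at 0 h, and its change of −0.33 had an adjusted p of 0.0603 although the groups did not overlap. A second probe of Hnrnpc read −0.80 at 18 h. Hnrnpm, with changes of −0.19 at 6 h and −0.38 at 18 h (adjusted p = 0.0675), and Hnrnpc both passed at 18 h without replicate 2 at 0 h. Further bright probes of Hnrnpm read −0.67 and −0.80 at 18 h. Hnrnpab, another A/B family protein, changed by −0.20 at 18 h (adjusted p = 0.338), or −0.30 without replicate 2 at 0 h. Its dimmer second probe read −0.87. For Hnrnpdl the probes went in different directions at 2 h: the brightest read 0.63 (adjusted p = 0.148), or 0.32 without replicate 2 at 0 h, the next −0.78 and the dimmest 0.89.

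Ptbp1 binds polypyrimidine tracts and is best known for repressing neuronal exons outside the nervous system, among them an exon of its own paralog Ptbp2. Its signals were 11.70, 11.80 and 11.70 at 0 h, 11.92, 11.82 and 11.47 at 2 h, 12.02, 12.02 and 11.92 at 6 h, and 10.84, 10.72 and 10.68 at 18 h. All 3 arrays at 6 h lay above the 3 untreated ones, and the 3 at 18 h lay below every other array. The change was 0.25 at 6 h (adjusted p = 0.218) and −0.99 at 18 h (SE 0.15, adjusted p = 0.000246), or 1.99-fold lower. Between 6 h and 18 h the level fell by 1.24 (SE 0.15, adjusted p = 0.000474), or 2.37-fold, the largest such fall among the members. No alternative ended its calls: it was the only member whose calls at 18 h against 0 h and at 18 h against 6 h passed in all 19 alternatives.

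**Figure D4:**
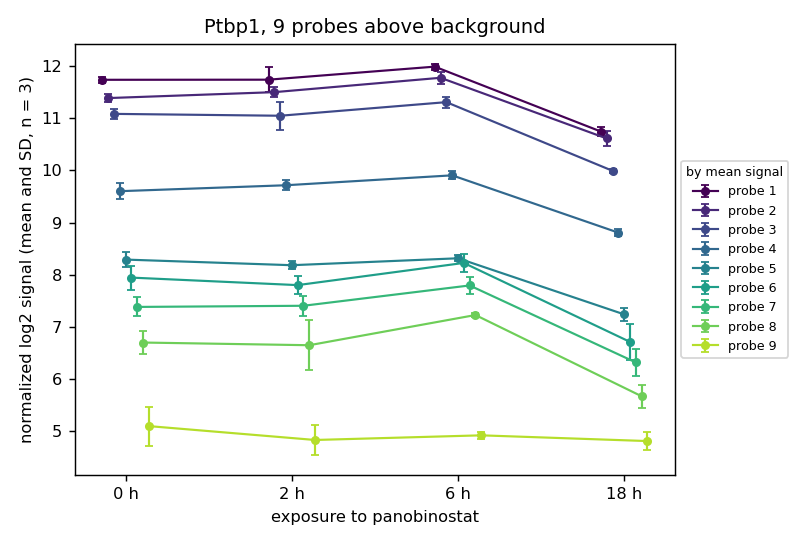
Normalized log2 signal (mean and SD of 3 arrays) of the 9 probes of Ptbp1 that were kept, numbered from the brightest to the dimmest, at 0 h and after 2 h, 6 h and 18 h of 50 nM panobinostat. Probes 1 to 8 fall between 6 h and 18 h by 1.07 to 1.56, and probe 9, which was above background on 0 arrays at 6 h and 18 h, stays flat.

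The array held 9 kept probes for Ptbp1, so that the same course could be read repeatedly. Without the dimmest, the other 8 changed by 0.02 to 0.53 at 6 h and by −0.77 to −1.23 at 18 h, and between 6 h and 18 h each fell by at least 1.07. Its paralogs, named here for their relation to it, had courses of their own: Ptbp3 changed by 0.75 at 6 h (adjusted p = 0.00763), by −0.04 at 18 h against 0 h, and by −0.79 at 18 h against 6 h (adjusted p = 0.0179, missed without replicate 1 or 3 at 6 h). Ptbp2, the neuronal form, was above background on 0 of 3 arrays at 18 h and on 2 of 3 at 0 h, and was at least 1.22-fold lower at 18 h (adjusted p = 0.0257), a call missed in 5 of 19 alternatives, without replicate 3 at 0 h or any one array at 18 h among them. Probes of a gene share their RNA, so they are not replicates of the exposure.

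Esrp1, an epithelial splicing regulator that stem cells also express, had signals of 9.72, 10.13 and 9.85 at 18 h, against 10.60, 10.63 and 10.29 at 0 h. Its change was −0.22 at 6 h (adjusted p = 0.379) and −0.61 at 18 h (SE 0.18, adjusted p = 0.0159), missed without replicate 1 at 0 h or replicate 1 at 18 h (adjusted p up to 0.0626). Rbfox2, which binds GCAUG motifs in introns, had 7.04, 6.94 and 6.92 at 18 h, against 7.46, 7.19 and 7.51 at 0 h. The groups did not overlap, yet the change of −0.42 did not pass (adjusted p = 0.0857), and its second probe, of similar brightness, read −0.82.

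The falls came at different times. Of the 20 members that fell at 6 h or 18 h, 9 were lower at both 6 h and 18 h (Hnrnpf, Hnrnpk, Hnrnpl, Hnrnpll, Prpf38b, Snrpa, Srsf11, Srsf4 and U2af2), 9 were lower at 18 h without having passed at 6 h (Esrp1, Hnrnpa2b1, Hnrnph1, Hnrnpu, Ptbp1, Srsf2, Srsf5, Tra2a and U2af1), and 2 were lower at 6 h without passing at 18 h (Prpf40b and Srsf10). Tested directly, 18 h against 6 h, 9 members passed, 7 lower and 2 higher, where 11.2% of all genes passed, 5.03% lower and 6.21% higher. The 7 were Ptbp1, Srsf2, Hnrnpa2b1, Hnrnpu, Tra2a, Hnrnpk and Prpf3. For 5 of the 9 genes first lower at 18 h the step after 6 h was itself past the threshold, and for Esrp1, Hnrnph1, Srsf5 and U2af1 it was not. Between 2 h and 6 h, 4 members passed, all lower (Srsf4, Srsf10, Srsf11 and U2af2), where 13.1% of all genes passed, 7.73% higher and 5.39% lower. The calls of Srsf10, Srsf11 and U2af2 were missed in 9, 10 and 6 of 19 alternatives (adjusted p up to 0.156, 0.342 and 0.109). That of Srsf4 was missed in 1 (adjusted p = 0.0504). With the mean of its probes Srsf11 changed by −0.23 (adjusted p = 0.342). Its further probes read −0.53, 0.27 and −0.06. Without replicate 1 at 6 h the count of members called between 2 h and 6 h was 0, and over all genes it was 536 in place of 1502. Over the 4 times, a moderated F test found 27 of the 63 members changed, where 44.1% of all genes were.

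The promoters of members that fell after 6 h are printed to show the sequence before the starts of these genes. They belong to the 5 of the 7 members lower at 18 h than at 6 h that have 1 listed start site, which is the comparison they were chosen by, and Hnrnpk among them had also been called lower at 6 h. Each window holds the 250 bases before the start of the gene in the RefSeq annotation of GRCm38.p6, written 5′ to 3′ on the gene's strand. Capitals mark matches on either strand to 6 short motifs, which are the CCAAT box (CCAAT), the GC box (GGGCGG), the TATA box (TATAAA), the E-box (CACGTG), the ETS motif (CCGGAAG) and the cAMP response element (TGACGTCA).
Ptbp1, chr10:79854182-79854431, plus strand: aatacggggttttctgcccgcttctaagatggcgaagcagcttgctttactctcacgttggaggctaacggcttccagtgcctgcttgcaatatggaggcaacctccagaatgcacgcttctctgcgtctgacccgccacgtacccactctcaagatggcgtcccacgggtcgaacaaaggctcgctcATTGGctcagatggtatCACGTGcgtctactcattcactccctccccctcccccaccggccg
Srsf2, chr11:116853095-116853344, minus strand: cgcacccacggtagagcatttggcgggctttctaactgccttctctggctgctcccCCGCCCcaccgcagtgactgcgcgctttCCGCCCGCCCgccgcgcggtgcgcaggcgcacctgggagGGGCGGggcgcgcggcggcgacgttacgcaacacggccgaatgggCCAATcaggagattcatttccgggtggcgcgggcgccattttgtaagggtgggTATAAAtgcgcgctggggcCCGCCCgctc
Hnrnpu, chr1:178337816-178338065, minus strand: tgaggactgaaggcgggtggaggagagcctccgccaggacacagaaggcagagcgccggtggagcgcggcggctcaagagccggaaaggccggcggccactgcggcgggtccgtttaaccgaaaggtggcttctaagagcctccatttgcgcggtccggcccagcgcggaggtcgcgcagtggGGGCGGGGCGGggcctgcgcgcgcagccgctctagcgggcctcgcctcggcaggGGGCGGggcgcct
Tra2a, chr6:49264053-49264302, minus strand: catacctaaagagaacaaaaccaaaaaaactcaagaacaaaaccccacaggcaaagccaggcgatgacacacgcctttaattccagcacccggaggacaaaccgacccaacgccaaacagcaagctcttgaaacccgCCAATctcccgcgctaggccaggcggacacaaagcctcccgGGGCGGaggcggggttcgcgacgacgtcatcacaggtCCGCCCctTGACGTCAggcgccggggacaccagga
Hnrnpk, chr13:58402118-58402367, minus strand: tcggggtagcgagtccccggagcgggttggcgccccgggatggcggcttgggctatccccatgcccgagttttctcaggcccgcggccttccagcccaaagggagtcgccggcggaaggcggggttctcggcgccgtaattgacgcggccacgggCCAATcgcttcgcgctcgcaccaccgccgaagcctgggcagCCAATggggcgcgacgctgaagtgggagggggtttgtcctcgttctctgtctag
The Ptbp1 window held a CCAAT match on the opposite strand and an E-box, and 0 GC boxes, and the Hnrnpk window held 2 CCAAT matches and 0 GC boxes. The Srsf2 window was the only one of the 5 with TATAAA, beside 5 GC boxes, 2 of which overlap each other, and the Tra2a window the only one with a cAMP response element. The Hnrnpu window held 3 GC boxes, 2 of which overlap, and 0 CCAAT matches. No motif was in all 5 windows.

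Over all members, 53 of the 63 tested had an entry in the promoter table, with 71 promoters. A CCAAT match was in 52.1% of these 71 windows and in 33.8% of all 32851 windows of the table, a GC box in 66.2% and 32.7%, an ETS motif in 25.4% and 6.91%, an E-box in 12.7% and 6.02%, TATAAA in 7.04% and 12.4%, and a cAMP response element in 4.23% and 1.55%. The median GC content was 60.4% over the members and 52.4% over all genes, and its part in these shares was not tested. A match is a description of letters and not a binding site. No motif was tested against the direction of change.

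The other genes of the splicing pathway were followed on 6 lists with 140 tested genes that are not members, of which 6 passed at 2 h, 45 at 6 h and 47 at 18 h (4.29%, 32.1% and 33.6%), close to the 3.45%, 31.4% and 36.7% of all tested genes. At 18 h 12.1% of the 140 were higher and 21.4% lower, beside 21% and 15.7% of all genes, and at 6 h 14.3% and 17.9%, beside 17.8% and 13.6%. The count at 2 h was 1, 2 and 1 without replicate 1, 2 or 3 at 2 h, 3 and 2 without replicate 2 or 3 at 0 h, and 3 without replicate 1 or 2 at 6 h. Over all genes these fits gave 144, 169 and 157, then 361 and 159, then 291 and 307, where all arrays gave 395. Of 23 SR-related proteins and SR protein kinases, 7 fell and 0 rose at 18 h, and 7 fell and 1 rose at 6 h. The median change of this list was −0.44 at 6 h and −0.38 at 18 h, beside 0.02 and 0.04 over all genes. The kinases of this list phosphorylate SR proteins and so control where these reside and act. Clk4, of the CDC-like kinases, had signals of 10.19, 10.63 and 10.40 at 0 h, 9.62, 9.41 and 9.06 at 2 h, 9.39, 9.48 and 9.58 at 6 h, and 8.57, 9.66 and 9.23 at 18 h. All 9 treated arrays were below the untreated ones, and the fall had passed by 2 h (−1.04, adjusted p = 0.0333), a call missed in 8 of 19 alternatives (adjusted p up to 0.131), the removal of any one array at 2 h and of replicate 2 or 3 at 0 h among them. Its relative Clk2, chosen after its values were seen, changed by −0.85 at 2 h (adjusted p = 0.0128, missed without replicate 1 or 3 at 2 h) and by −0.89 at 18 h (adjusted p = 0.000972). Srpk1, the main cytoplasmic SR protein kinase, likewise chosen after its values were seen, had 9.50, 9.30 and 9.46 at 18 h, against 10.43, 10.07 and 10.39 at 0 h, a change of −0.88 (adjusted p = 0.000905), and changed by −0.13 at 6 h. The other kinases of the list are not described here, so those named do not stand for the group. Luc7l, a relative of a yeast U1 snRNP protein, fell by 0.96 at 6 h and by 1.29 at 18 h (adjusted p = 5.94e-05). A second probe of Luc7l read −0.20 at 18 h. Srek1 was above background on 0 of the 3 arrays at 6 h and was at least 1.81-fold lower there than at 0 h (adjusted p = 0.00327), while a dim second probe read 0.33 and the mean of its probes −0.43 (adjusted p = 0.0701).

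Of 39 core spliceosome proteins outside the member families, 5 rose and 6 fell at 18 h, and 5 rose and 5 fell at 6 h, with median changes of −0.01 and −0.10. For this and the following lists, 21% of all genes rose and 15.7% fell at 18 h, and 17.8% and 13.6% at 6 h. Slu7, a factor of the second catalytic step like Prpf18, changed by 0.95 at 2 h (adjusted p = 0.0310, missed in 6 of 19 alternatives, without any one array at 2 h or without replicate 2 or 3 at 0 h among them), by 1.35 at 6 h (adjusted p = 0.000563) and by 0.81 at 18 h (adjusted p = 0.0105), the last missed without replicate 3 at 0 h (adjusted p = 0.0521) and with the mean of its probes (0.46, adjusted p = 0.0749). A dim second probe read 0.16 at 6 h. Of 45 other regulators of alternative splicing, 8 rose and 13 fell at 18 h, and 9 rose and 9 fell at 6 h, with median changes of −0.17 and −0.16. Elavl3, a neuronal RNA-binding protein that is also on the list of neuronal markers, had signals of 8.73, 8.33 and 7.72 at 18 h, against 5.96, 7.21 and 6.37 at 0 h, and changed by 1.97 at 6 h (adjusted p = 0.000343) and 1.75 at 18 h (adjusted p = 0.000572). Tia1, which binds U-rich sequence beside weak splice sites, had 5.22, 5.96 and 6.19 at 18 h, against 7.28, 6.67 and 7.10 at 0 h (change −1.23, adjusted p = 0.00241). Of 9 proteins of the minor, U12-type spliceosome, 3 rose and 0 fell at 18 h (median 0.04), with Snrnp25 at 1.02 (adjusted p = 0.000141). Snrnp35, of the same list, changed by −1.04 at 6 h (adjusted p = 0.000202) and by −0.06 at 18 h. Of 14 genes of the SMN complex and snRNP assembly 1 rose and 3 fell at 18 h (median 0.01), among them Coil, the marker protein of Cajal bodies, at −0.91 (adjusted p = 0.000366). Of 10 genes of the exon junction complex and nonsense-mediated decay 0 rose and 1 fell at 18 h (median −0.14), Smg8 at −0.56 (adjusted p = 0.0424), a call missed in 12 of 19 alternatives.

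Of the 63 members, 37 passed at neither 6 h nor 18 h against 0 h. Among these, Hnrnpa3, Hnrnph3, Hnrnpr, Hnrnpul1, Prpf31, Sf3b1 and Srsf12 were read by probes that were not above background on every array, so a change in them would have been hard to see. The other 56 members were above background on all 12 arrays and include every member called. With a median SE of 0.2 on the log2 scale, changes of the size seen for Snrpf (0.05) or Prpf8 (−0.07) lie well within the error of the 3 arrays.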

How the data were processed

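Per the labels' protocols, total RNA was labelled with biotin and hybridized to single-colour Illumina bead arrays. The authors deposited a non-normalized table with a signal intensity and a detection p-value for each of 45281 probes on each of 12 arrays, and a second table of normalized intensities, used as an alternative. GenomeStudio is named in the submitters' processing notes, with no version, and no genome build for the array. Intensities were background corrected (normexp in limma 3.58.1, R 4.3.3, from the detection p-values, offset 16), log2 transformed and quantile normalized. The 20029 probes detected (p-value under 0.05) on 3 or more arrays were kept, probes with 1 annotated gene were brought to RefSeq GRCm38.p6 symbols through their gene identifier, and the probe with the highest mean stood for its gene.

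One mean per time was fitted to all 12 arrays with limma, with 2-sided moderated tests and Benjamini-Hochberg adjustment over 11445 genes. Log2 changes had a median SE of 0.2, a precision that the number of arrays limits. The fit was tested on simulated data. Members, lists and tests were chosen with earlier results of these data known. Members named in full were the largest calls in each direction and comparison (up to 8, or 4 between later times), the smallest F-test p of each family, the 7 single regulators, genes that turned between 6 h and 18 h and genes whose probes disagreed; from each of the 6 other splicing lists, the 2 largest calls each way could be named. Alternatives were 7 other settings (no background correction, the authors' normalized table, scaling to the 75th percentile, no filter, the mean of a gene's probes, a replicate block, only the groups compared) and each of the 12 arrays left out in turn. Promoter windows were searched for the 6 motifs given in the text and for an NRF1 motif, whose matches were counted and are not reported here. A bound for a probe below background on all arrays of a group was taken against the lowest detected signal of each array. Srsf7, Snrpa1 and Snrpc were not analysed here.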

Additional observations from a re-analysis of the deposited data

Results flagged for a closer look

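For 13 pairs of times, the change of a member at the later time differed from its change at the earlier one by the test of the difference itself, limma's moderated test with adjustment over all genes. Between 2 h and 6 h, the level at 6 h was lower for 4 members, with log2 differences of −0.90 for Srsf4, −0.81 for Srsf10, −0.62 for Srsf11 and −0.55 for U2af2. Between 6 h and 18 h, the level at 18 h was lower for 7 members, with log2 differences of −1.24 for Ptbp1, −1.18 for Srsf2, −1.04 for Hnrnpa2b1, −0.87 for Hnrnpu, −0.81 for Tra2a, −0.59 for Hnrnpk and −0.56 for Prpf3. The level at 18 h was higher than at 6 h for Srsf4 by 0.74 and for Sf3b5 by 0.49, the latter missed in 12 of 19 alternatives. Of these 13, only the difference for Ptbp1 passed in all 19 alternatives.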

How the results depend on the processing

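Of the calls against 0 h, 5 of 14 at 6 h (Hnrnpll, Prpf18, Snrpa, Srsf10 and Srsf4) and 10 of 24 at 18 h (Hnrnpa2b1, Hnrnpk, Hnrnpl, Hnrnpll, Hnrnpu, Prpf18, Ptbp1, Srsf11, Srsf5 and U2af2) passed in all 19 alternatives. One call changed sign: Snrpd2 at 18 h, with a change of -0.062 under scaling to the 75th percentile. Leaving out single arrays gave 0 to 1 members called at 2 h (all arrays 0; the 1 without replicate 1 at 0 h), 7 to 17 at 6 h (all arrays 14), 14 to 30 at 18 h (all arrays 24), 0 to 7 for 6 h against 2 h (all arrays 4; 0 and 1 without replicate 1 or 2 at 6 h, 1, 1 and 2 without replicate 1, 2 or 3 at 2 h, 2 and 7 without replicate 1 or 2 at 0 h), 2 to 10 for 18 h against 6 h (all arrays 9) and 20 to 33 by the F test (all arrays 27), and 1 to 7 genes of the other splicing lists at 2 h (all arrays 6). For 6 h against 2 h, 7 members were called without background correction and 8 with the authors' normalized table. With the mean of a gene's probes 2 were called, and 8 with only the groups compared. Over all genes these 4 settings gave 1611, 1611, 1431 and 2120 calls, where the main fit gave 1502. With only the groups compared, 9 members were called at 6 h and 3 genes of the other lists at 2 h. Over all genes that setting gave 3350 calls at 6 h and 217 at 2 h, in place of 3591 and 395. Counting only members detected on all 12 arrays, a subset chosen after seeing the data, could not change these counts. It reuses the same fit and holds every member called. For 18 h against 6 h, 3, 4 and 2 members passed without replicate 1, 2 or 3 at 6 h and 4 without any one array at 18 h. Over all genes these fits gave 596, 686 and 535, then 1189, 678 and 911, where all arrays gave 1287. The causes were not tested. Deviations of same-numbered arrays correlated above 0.1 in 16 of 18 pairs (0.0666 to 0.491, against −0.405 to 0.131 for different numbers), and 12 of 12 arrays correlated best with their own number. This is a hint from the data that the numbers share something. The labels do not say what a number marks and the pairs were not all above 0.1, so the block was kept as an alternative; with replicate number as a block 3 members were called at 2 h, 18 at 6 h, 31 at 18 h and 9 for 6 h against 2 h. Over all genes the fit with that block gave 763, 4386, 4959 and 2248 calls in the same comparisons. The chip as a block was not run, because the headers read here carry no chip or position.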
